A study of Mus musculus with 18 samples.

Results

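The solute carriers are a large class of membrane transporters, and 114 of the 7142 genes with a single symbol on these cDNA arrays belonged to them. They were taken as every gene whose symbol begins with Slc and a number, which gave 140 of the 9866 clones with a single symbol. Each of the 140 clones was measured on 1 or both arrays of every condition, so all 114 genes were kept. 91 genes were carried by 1 clone, 20 by 2 and 3 by 3 clones, and clones were averaged per gene. The symbol rule also took in Slc9a3r1, a scaffold protein that binds a sodium/proton exchanger and carries nothing itself. A further 3 clones whose spot names an Slc gene beside another gene were left out.

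The arrays followed IMT11, a mouse embryonic stem (ES) cell line, from undifferentiated cells to embryoid bodies (EBs). D0 is undifferentiated cells kept on gelatin with leukaemia inhibitory factor (LIF), the cytokine that holds mouse ES cells undifferentiated. D1-LIF to D4-LIF are EBs of 1000 cells started in hanging drops and grown for the numbered days in ES medium with no LIF added, and D1+LIF to D4+LIF are EBs grown with LIF. The line is not genetically modified. Each of the 9 conditions was hybridised on 2 arrays against a pooled control, once with the sample in Cy3 and once in Cy5, which gave 18 arrays. Different RNA was labelled for each array. The labels describe 2 biological sets but not which set went onto which array, so the dye and the set cannot be told apart, and 2 arrays a condition limit the precision of every value. Every value below is a log2 ratio centred on the median of its array and slide, and is read as sample over pool. That direction is likely, since the labels name the sample first, but it is not stated, and every sign rests on it.

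Solute carriers move sugars, amino acids, ions, nucleosides, vitamins and metals across the plasma membrane, and the Slc25 family moves metabolites across the inner mitochondrial membrane. Some work alone, and others need a partner: Slc3a2 is the heavy chain that brings amino acid exchangers of the Slc7 family to the cell surface, and basigin (Bsg) does the same for the lactate carriers Slc16a1 and Slc16a3. ES cells are known for a high use of glucose and glutamine, which enter through carriers of the Slc2 and Slc1 families. The genes were grouped by what their family carries: 21 genes for amino acids and peptides, 9 for sugars, 8 for monocarboxylates and other organic ions, 16 mitochondrial carriers, 16 for metal ions, 15 for inorganic ions, 16 for nucleosides and nucleotide sugars, and 13 for vitamins, lipids and other substrates.

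The values spread very unevenly over the arrays, and this touches every result below. The clones were printed on 2 slides, with 54 Slc genes on slide 1 only, 48 on slide 2 only and 12 on both. On the D0 Cy3 array the slide 1 genes had a standard deviation (SD) of 2.13 and the slide 2 genes 0.46. On the D0 Cy5 array the same sets had SDs of 0.27 and 0.32. The D1+LIF Cy5 array had an SD of 2.21 for slide 1 genes, 34 of 54 of which had a value, and the D2-LIF Cy5 array had values for 8 of 54. On D4+LIF Cy5 slide 2 was the wider, with an SD of 1.08. The count of Slc genes more than 2-fold from the pool followed these spreads, at 41 on D0 Cy3, 31 on D1+LIF Cy5, 20 on D4+LIF Cy5 and 0 to 14 on each of the other 15 arrays. Medians of the Slc genes stayed between -0.03 and 0.05 on all 18 arrays.

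**Figure D1:**
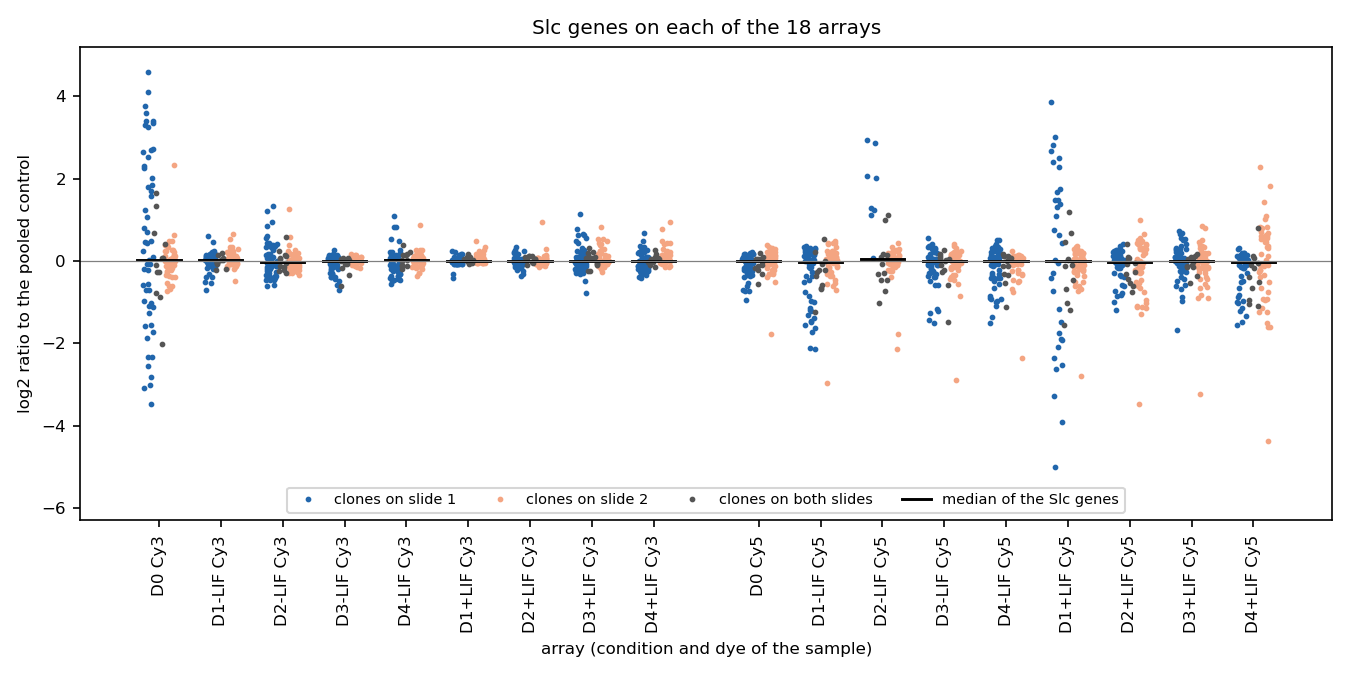
Log2 ratio to the pooled control of each Slc gene (y axis) on each array (x axis), Cy3 arrays on the left and Cy5 arrays on the right; colour gives the slide that holds the gene's clones and the black line is the median. The slide 1 genes of D0 Cy3 (SD 2.13) and D1+LIF Cy5 (SD 2.21) spread far more widely than those of any other array.

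The 2 arrays of a condition did not rank the transporters alike. Across the Slc genes, which are not independent replicates, the correlation between the Cy3 and the Cy5 array of a condition averaged -0.10 and ranged from -0.60 to 0.46. Cy5 arrays of different conditions correlated at 0.52 on average and Cy3 arrays at 0.17. Over all genes the lowest correlation between any pair of Cy3 arrays was -0.28. In D0, 33 of the 114 genes lay on the same side of the pool on both arrays, 18 above and 15 below, which is 28.9% beside 29.3% of all genes. The share was highest in D3+LIF, at 62.3% beside 53.9% of all genes. 14 Slc genes (12.3%, beside 19.4% of all genes) were below the pool on every Cy5 array that measured them, in all conditions alike, and 13 (11.4%, beside 11.2%) were above it on every such array.

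No Slc gene passed any of the 13 tests of the design at an adjusted p of 0.05 (limma across all 7142 genes, dye as a term, Benjamini-Hochberg). The tests set each of the 8 EB conditions against D0, asked for a trend over days 1 to 4 without and with LIF, for a difference between those trends, for an effect of LIF withdrawal in EBs, and for any difference among the 9 conditions. Calls were scarce for all genes too: 0.07% in D1-LIF, 0.056% in D3-LIF, 0.014% in D1+LIF, 0.042% in D3+LIF, 0.056% in D4+LIF and 0% in each of the other 8 tests. At an unadjusted p under 0.05 there were 27 Slc genes in D1-LIF against D0 (23.7%, beside 22.7% of all genes), 8 in D2-LIF (7.02%, beside 8.01%), 16 in D3-LIF (14% beside 19.2%) and 9 in D4-LIF (7.89%, beside 12.7%). With LIF there were 21 in D1+LIF (18.4%, beside 22.5%), 18 in D2+LIF (15.8%, beside 19.4%), 19 in D3+LIF (16.7%, beside 20.5%) and 26 in D4+LIF (22.8%, beside 28.5%). The share of Slc genes was above that of all genes in D1-LIF and below it in the other 7 comparisons. On D2-LIF Cy5 and D1+LIF Cy5 only 68 and 94 of the 114 genes had a value, and for the others the condition rested on its Cy3 array. In RNA from whole cultures, fewer cells of a type and less RNA per cell cannot be told apart.

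The counts turned on which arrays were in the fit. Without the D0 Cy5 array, so that D0 rested on the Cy3 array alone, 27 to 43 Slc genes were called in each of the 8 comparisons with D0, and 1650 to 2544 of all genes. Without the D0 Cy3 array there were 0 Slc calls in each. Leaving out the Cy3 array of the EB condition itself also gave Slc calls in D2-LIF, D1+LIF and D4+LIF. That condition then rested on its Cy5 array alone, and these calls are not set beside those of all genes. Among the genes named by rule, D4+LIF against D0 was called without D0 Cy5 for Slc14a1 (-2.52), Slc40a1 (0.72), Slc6a6 (-1.40), Slc20a1 (-3.86), Slc2a1 (-4.27), Slc3a2 (-3.91) and Slc2a3 (-3.28), among others, and without D4+LIF Cy3 for Slc14a1 (-2.95) and Slc6a6 (-1.27), among others. With slide 1 of the 3 widest or emptiest arrays left out (D0 Cy3, D2-LIF Cy5 and D1+LIF Cy5), a choice made after seeing the data, there were also 0 in all 13 tests. Median differences from D0 over the Slc genes lay between -0.04 and 0.02, and those over all genes between -0.13 and -0.04. Centring per array and slide sets these near 0. With no centring the Slc medians were 0.27 to 1.04, and with 1 median per array they reached 0.53 in D4+LIF. Within the Cy3 arrays the SD of the Slc differences from D0 was 1.38 to 1.61, and within the Cy5 arrays 0.30 to 1.30. In D4+LIF, 38 of the 114 genes were lower than D0 within both dyes and 36 higher within both, which is 64.9% of the same sign beside 67.9% of all genes and the highest of the 8 comparisons. The lowest was D2-LIF, at 38.2% beside 44.7%, and the others lay between 48.9% and 58.8%, each below the share of all genes.

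Among the sugar carriers, Slc2a1 and Slc2a3, the facilitative glucose transporters GLUT1 and GLUT3, were far above the pool in D0 on Cy3 and below it on Cy5. Slc2a1 stood at 4.60 on D0 Cy3, the highest Slc value of that array, and at -0.61 on D0 Cy5. Its Cy3 values in EBs were -0.54, 1.34, -0.19 and 1.10 on days 1 to 4 without LIF and 0.07, -0.02, -0.05 and 0.69 with LIF. Its Cy5 values were -1.63, 1.24, -1.50 and -1.52 without LIF and -3.27, -0.99, -0.59 and -1.56 with LIF. On Cy3 every EB array thus lay below D0, whereas on Cy5 D2-LIF and D3+LIF did not. Both Slc2a1 clones were far above the pool on D0 Cy3, at 4.76 and 4.42, and below it on D0 Cy5, at -0.77 and -0.44. On D3+LIF Cy5 clone 1 was at -0.80, just below its D0 value, and clone 2 at -0.37, above its own. On D2-LIF Cy5 only clone 1 had a value. The fitted difference of D4+LIF from D0 was -2.43 ± 1.02 (SE; adjusted p = 0.164), and -0.59 without the D0 Cy3 array.

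Slc2a3 was at 3.39 on D0 Cy3 and -0.24 on D0 Cy5, and between -0.41 and 0.11 on the Cy3 arrays of EBs. Its D4+LIF difference from D0 was -1.94 ± 0.93 (adjusted p = 0.195), made of -3.63 within Cy3 and -0.25 within Cy5. With the Cy3 arrays read as pool over sample, both genes turned sign, to 1.48 for Slc2a1 and 1.69 for Slc2a3. Slc2a4, the insulin-responsive glucose transporter GLUT4, lay the other way on Cy3, at -0.68 in D0 and -0.19 to 0.54 in EBs, with 0.34 on D0 Cy5. Of the 9 sugar carriers 5 were below D0 in D4+LIF, with a median of -0.15 beside -0.13 for all genes, and 1 in each direction had an unadjusted p under 0.05.

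**Figure D2:**
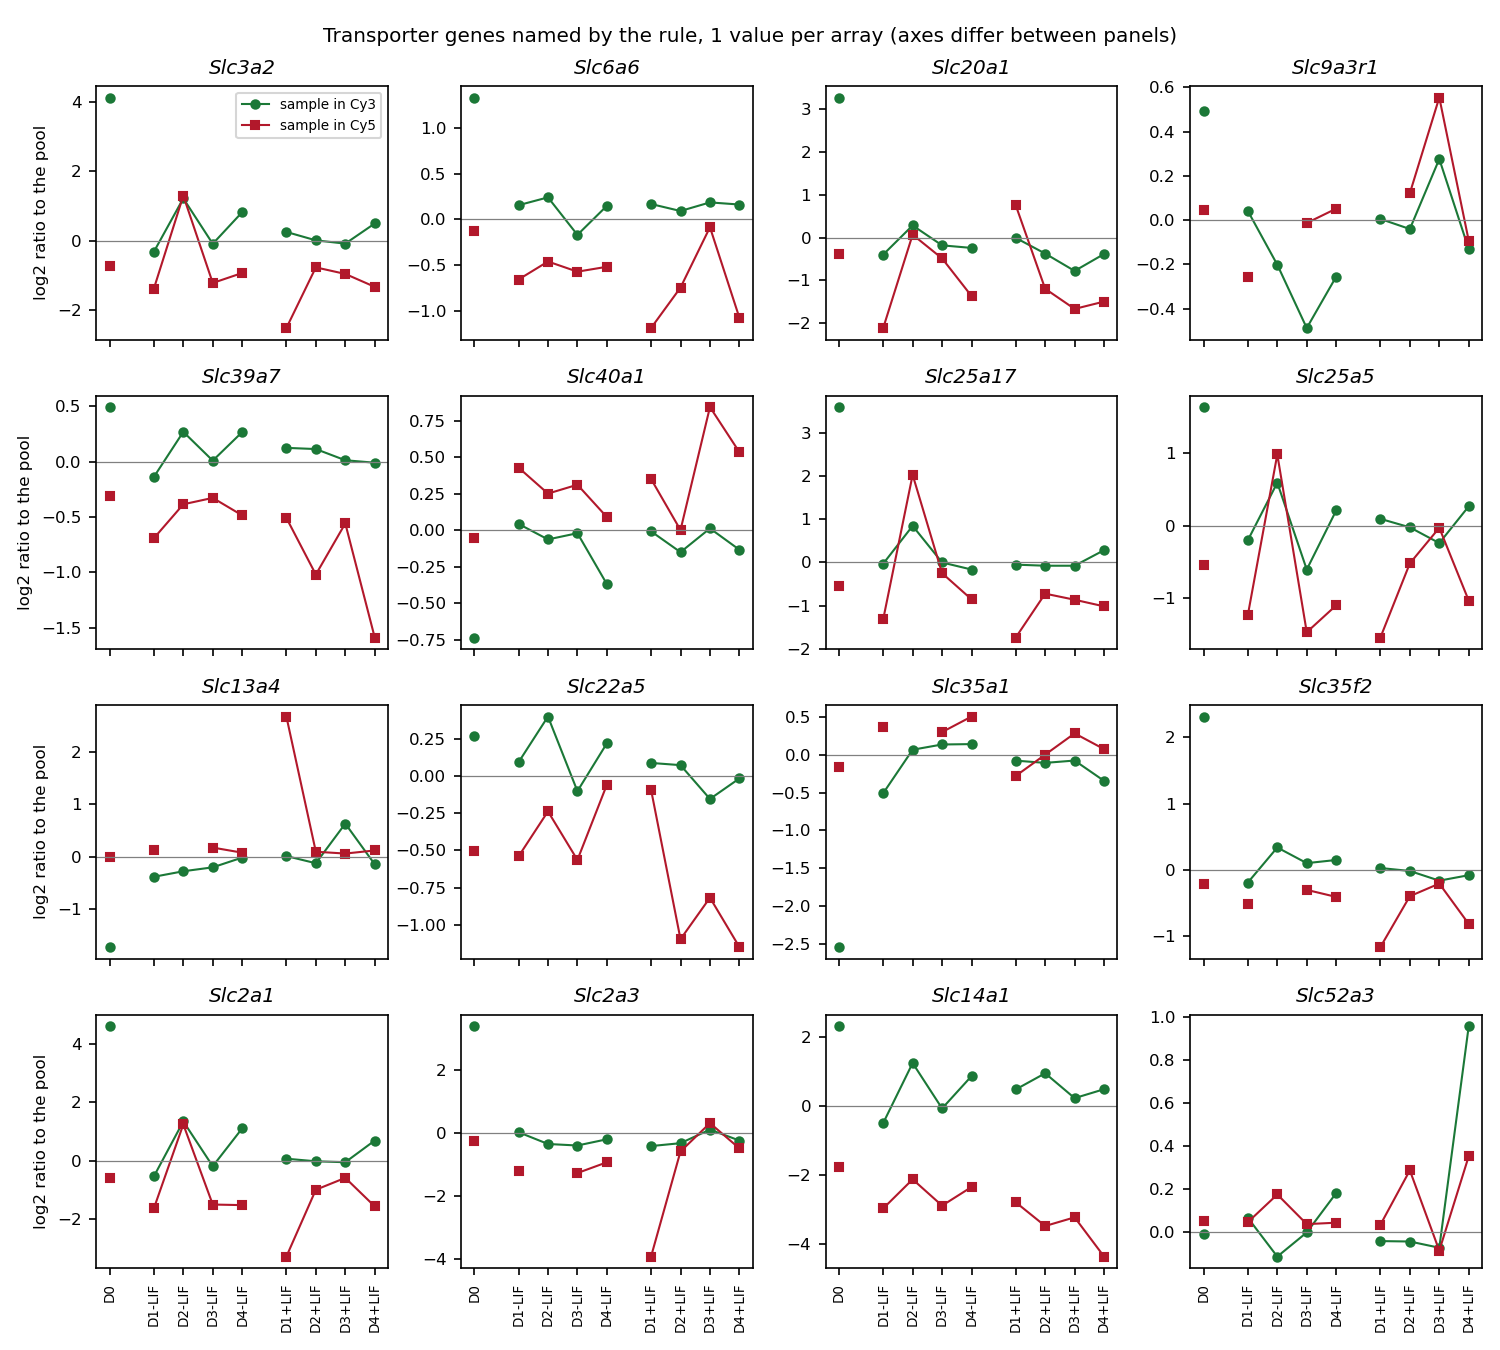
Log2 ratio to the pool (y axis; the scale differs between panels) of the 16 genes named by the rule, by condition (x axis), with the sample in Cy3 as green circles and in Cy5 as red squares, 1 array per point. Slc2a1 and Slc3a2 are at 4.60 and 4.12 on D0 Cy3 and below 0 on D0 Cy5, whereas Slc40a1 is lowest in D0 on both dyes.

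The amino acid and peptide carriers were led by Slc3a2 and Slc6a6. Slc3a2, the heavy chain of several exchangers, stood at 4.12 on D0 Cy3 and -0.74 on D0 Cy5, and its EB values ran from -0.32 to 1.22 on Cy3 and from -2.52 to 1.29 on Cy5. D4+LIF differed from D0 by -2.11 ± 0.92 (adjusted p = 0.17), by -0.32 without the D0 Cy3 array, and by 0.0048 after quantile normalisation. Slc7a8, a light chain that pairs with it, was at -3.00 on D0 Cy3 and near the pool on D0 Cy5. Its fitted difference in D4+LIF was 1.47 ± 0.65 (adjusted p = 0.177), the highest of the amino acid group, and 2.82 without the D0 Cy5 array.

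Slc6a6, the taurine transporter, was carried by 3 clones on both slides. Its gene mean was 1.33 on D0 Cy3 and -0.09 to -1.19 on all 9 Cy5 arrays, with -0.13 in D0. D4+LIF minus D0 was -1.17 within Cy3 and -0.95 within Cy5, so both dyes gave a value of similar size, and the fit gave -1.06 ± 0.29 (adjusted p = 0.132), but 0.16 with no centring. The clones did not share these values. The slide 1 clones were at 2.38 and 1.67 on D0 Cy3 and the slide 2 clone at -0.05, while on D4+LIF Cy5 the slide 1 clones were at -0.56 and 0.01 and the slide 2 clone at -2.70. Slc1a5, a glutamine carrier, was the highest in D0 of all conditions on both dyes, at 0.27 and 0.08, with EB values of -0.07 to 0.17 on Cy3 and -0.14 to -1.60 on Cy5. In the whole group 10 of 21 genes were below D0 in D4+LIF, with a median of 0.02, and 3 lower and 1 higher had an unadjusted p under 0.05.

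Among the lactate carriers, Slc16a1 and its partner Bsg were both far above the pool on D0 Cy3 and below it on D0 Cy5. Slc16a1 was at 3.35 on D0 Cy3, -0.73 on D0 Cy5 and -0.57 to -2.36 on the 7 Cy5 arrays of EBs that measured it. Bsg was at 4.63 and -0.78 on the D0 arrays. On Cy5 arrays of EBs they parted, with Bsg at 0.49 on D1+LIF and -2.24 on D3+LIF, where Slc16a1 was at -2.36 and -0.60. Slc16a3, the other lactate carrier, was at 0.70 and -0.71, and 0.83 on D4-LIF Cy3 was its highest value. Slc22a5, the carnitine transporter, was below the pool on all 9 Cy5 arrays, from -0.06 in D4-LIF to -1.15 in D4+LIF, and lay between -0.15 and 0.40 on Cy3. Its mean over EBs was 0.30 ± 0.12 higher without LIF than with LIF at an unadjusted p of 0.0358, but adjusted p was 0.854. Slc13a4, a sulphate carrier, was lowest in D0 on both dyes, at -1.73 on Cy3 and near the pool on Cy5, with 2.67 on D1+LIF Cy5 standing far above its other values, which lay between -0.39 and 0.63 in the EBs. Of the 8 genes in this group 4 were below D0 in D4+LIF, with a median of -0.16, and 1 had an unadjusted p under 0.05.

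The mitochondrial carrier Slc25a5 exchanges ADP for ATP. The study designed an RT-PCR primer pair for it, shown here because the arrays carried 2 clones of the gene that disagreed. The RT-PCR itself is not analysed here.
Slc25a5 forward: tgataaaacagacaagcccagaga
Slc25a5 reverse: gcagtctggacgcaaaggaa
The slide 1 clone stood at 4.02 on D0 Cy3 and -1.29 on D0 Cy5, and its Cy5 values in EBs ran from -3.39 to 1.23. The slide 2 clone lay the other way on both D0 arrays, at -0.73 and 0.18, and between -0.25 and 0.74 in EBs. The clones were 4.76 apart on D0 Cy3 and differed by 1.30 on the median array. The gene mean gave a D4+LIF difference of -0.93 ± 0.55 (adjusted p = 0.246), and the slide 2 clone alone 0.59. Slc25a5 shares much of its sequence with Slc25a4, so cDNA of that gene could bind the same spots, which was not tested.

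The slide 1 clone of Slc25a5 was the only transporter clone that lay 2-fold or more from the pool in all 4 spots of a condition. In D3-LIF its spots were at -1.35 and -1.07 on the Cy3 array and -3.04 and -2.61 on the Cy5 array. Over all conditions this criterion, which carries no test, was met by 0.129% of the clone measurements with 4 values. Among the Slc clones it was met by 1 of 1156. Within D3-LIF it was met by 53 clones below the pool and 1 above, of 9866, and by 1 of 140 Slc clones.

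**Figure D3:**
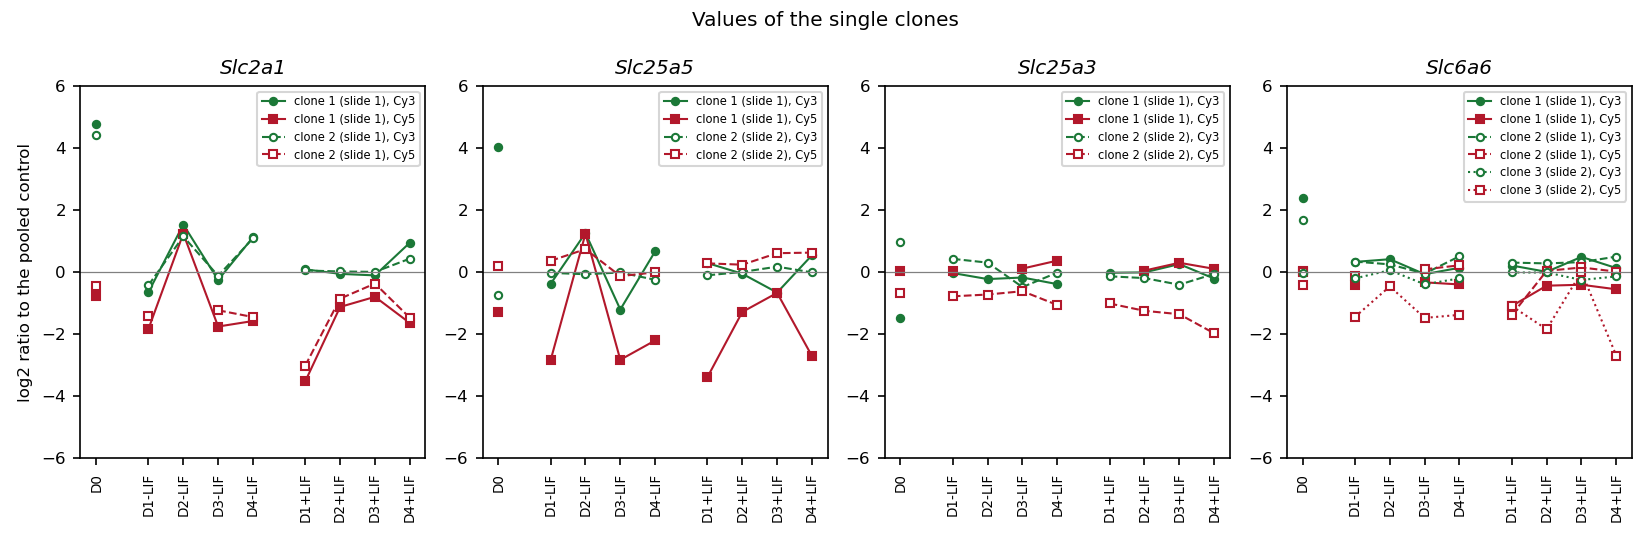
Log2 ratio to the pool (y axis) of the single clones of 4 genes by condition (x axis), Cy3 in green and Cy5 in red, with filled symbols for clone 1 and open symbols for the others. The pair of Slc2a1 clones run together (at most 0.52 apart), and the Slc25a5 clones are 4.76 apart on D0 Cy3.

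Among the other Slc25 genes, Slc25a37 lay between -0.14 and 0.21 on all 18 arrays. The clone pairs of Slc25a20 and Slc25a36 differed by 0.22 and 0.24 on the median array. They were 3.08 apart on D1+LIF Cy5 and 1.93 apart on D2-LIF Cy5, in that order. On D0 Cy3 the Slc25a20 clones were at 1.21 and -1.37. Of the 23 Slc genes with over 1 clone, 20 had clones that differed by over 1 on at least 1 array. Slc25a3, the mitochondrial phosphate carrier, had a slide 1 clone at -1.49 and a slide 2 clone at 0.98 on D0 Cy3. The slide 2 clone was below the pool on all 9 Cy5 arrays, from -0.62 to -1.98, and the slide 1 clone lay between 0.04 and 0.37 on the 7 Cy5 arrays that measured it. Slc25a17, a peroxisomal member of the family, Slc25a39, and Slc25a11, the oxoglutarate carrier, stood at 3.59, 3.77 and 3.41 on D0 Cy3 and at -0.54, -0.34 and -0.36 on D0 Cy5. Slc25a10, the dicarboxylate carrier, lay at -2.33 and 0.18. Of the 16 genes 11 were below D0 in D4+LIF, with a median of -0.16 beside -0.13 for all genes, and 2 lower and 2 higher had an unadjusted p under 0.05.

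Slc40a1, the iron exporter ferroportin, differed from D0 by almost the same amount on both dyes in D4+LIF. It was at -0.74 on D0 Cy3 and, in EBs, at 0.04, -0.06, -0.02 and -0.37 without LIF and -0.0072, -0.15, 0.01 and -0.13 with LIF. On Cy5 it was at -0.05 in D0, at 0.43, 0.25, 0.31 and 0.09 without LIF, and at 0.35, 0.0017, 0.85 and 0.54 with LIF. D0 was the lowest condition on both dyes, and D4+LIF minus D0 was 0.60 within Cy3 and 0.59 within Cy5. The fitted difference of 0.60 ± 0.18 did not pass the test (adjusted p = 0.132). With the Cy3 arrays read as pool over sample it became -0.0073, so it rests on the direction taken.

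Slc39a7, a zinc transporter of the endoplasmic reticulum, was highest in D0 on both dyes, at 0.49 and -0.31, and lowest in D4+LIF on Cy5 at -1.59. Its D4+LIF difference was -0.89 ± 0.26 (adjusted p = 0.132), made of -0.50 within Cy3 and -1.28 within Cy5. Slc39a4, the zinc importer of the gut, lay higher in D4+LIF than in D0 by 0.99 ± 0.35 in the fit (adjusted p = 0.146), with 1.82 on the Cy5 array and -0.12 on the Cy3 array of D4+LIF. The gene means of the iron importer Slc11a2 and the copper importer Slc31a1 lay between -0.22 and 0.42 on all Cy3 arrays. On D0 Cy3 the slide 1 clone of Slc31a1 was at 1.04 and its slide 2 clone at -0.20. On D1+LIF Cy5 the slide 1 clone of Slc11a2 was at 2.25 and the slide 2 clone at 0.15, and the gene's D1+LIF difference from D0 was 0.66 ± 0.28 (adjusted p = 0.204). Slc31a1 lay between -0.46 and 0.13 on Cy5. Of the 16 metal carriers 8 were below D0 in D4+LIF, with 2 lower and 3 higher at an unadjusted p under 0.05.

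In the inorganic ion group Slc20a1, a sodium and phosphate cotransporter, was at 3.26 on D0 Cy3 and -0.39 on D0 Cy5. It was below D0 on all EB arrays in Cy3, and on 6 of 8 in Cy5. Its differences from D0 were -2.69 ± 0.78 in D1-LIF (adjusted p = 0.164) and -2.37 ± 0.78 in D4+LIF (adjusted p = 0.138), and the latter was -0.89 without the D0 Cy3 array. Of the 15 genes 11 lay above D0 in D4+LIF, with a median of 0.38, the highest of the 8 groups, beside -0.13 for all genes. Of those above D0, 2 had an unadjusted p under 0.05: Slc4a3, an anion exchanger, at 0.80 ± 0.29 and Slc12a5, a potassium and chloride cotransporter, at 0.52 ± 0.23. On D4+LIF they stood at 1.43 and 1.09 on Cy5 and at 0.12 and 0.07 on Cy3. Of all arrays D4+LIF Cy5 had the widest slide 2 values, and whether that had a part in these values was not tested. Slc9a3r1, the scaffold, lay between -0.49 and 0.55 on the 16 arrays that measured it. In EBs 14 of the 15 genes were lower without LIF than with LIF, beside 59.6% of all Slc genes and 50.7% of all genes. The group median was -0.16 beside -0.0032 for all genes, and no gene of the group had an unadjusted p under 0.05. The lowest of the 15 was the scaffold Slc9a3r1, at -0.25. The median of all genes in this comparison depends on the scaling, at -0.16 with no centring and -0.12 with 1 median per array.

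Of the nucleoside and nucleotide sugar carriers, Slc35a1, which brings CMP-sialic acid into the Golgi, was at -2.54 on D0 Cy3 and -0.16 on D0 Cy5, with EB values of -0.51 to 0.14 on Cy3 and -0.28 to 0.51 on Cy5. Slc35f2 was at 2.31 and -0.21, and below the pool on all 8 Cy5 arrays that measured it. D4+LIF differed from D0 by 1.22 ± 0.51 for Slc35a1 and -1.50 ± 0.51 for Slc35f2 (adjusted p = 0.167 and 0.144). Without the D0 Cy5 array these were 2.26 and -2.50. The plasma membrane nucleoside carriers Slc29a1 and Slc29a2 were at 0.24 and -1.58 on D0 Cy3. Of the 16 genes 8 were below D0 in D4+LIF, with a median of 0.13.

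Slc14a1, a urea transporter, had the smallest p of all Slc genes for any difference among the conditions (unadjusted p = 0.0243 and adjusted p = 0.78 in limma's F test). On Cy3 it was at 2.33 in D0, at -0.49, 1.25, -0.06 and 0.88 on days 1 to 4 without LIF, and at 0.49, 0.96, 0.23 and 0.49 with LIF. On Cy5 it was at -1.77 in D0, at -2.97, -2.13, -2.89 and -2.35 without LIF, and at -2.79, -3.48, -3.23 and -4.37 with LIF. D0 was the highest condition on both dyes, while the dye term, Cy5 minus Cy3, was -3.56, the widest of any Slc gene. Its clone is on slide 2, where the Slc values of the D0 arrays had SDs of 0.46 and 0.32. The difference from D0 was -2.01 ± 0.50 in D1-LIF (adjusted p = 0.154) and -2.22 ± 0.50 in D4+LIF (adjusted p = 0.114), and with equal spread forced on every array and slide the latter turned to 0.45.

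Slc52a3, a riboflavin transporter, lay near the pool everywhere but in D4+LIF. It was between -0.11 and 0.29 on the other 16 arrays, and at 0.96 and 0.35 on the Cy3 and Cy5 arrays of D4+LIF. The difference from D0 was 0.63 ± 0.21 (adjusted p = 0.138), and its slope over the 4 days with LIF was 0.18 ± 0.07 per day (unadjusted p = 0.0228, adjusted p = 0.705). Slc66a2 held the lowest value of D0 Cy3, -3.48, and was at -0.15 on D0 Cy5. Of the 13 genes in this mixed group 7 were below D0 in D4+LIF, with a median of -0.03.

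**Figure D4:**
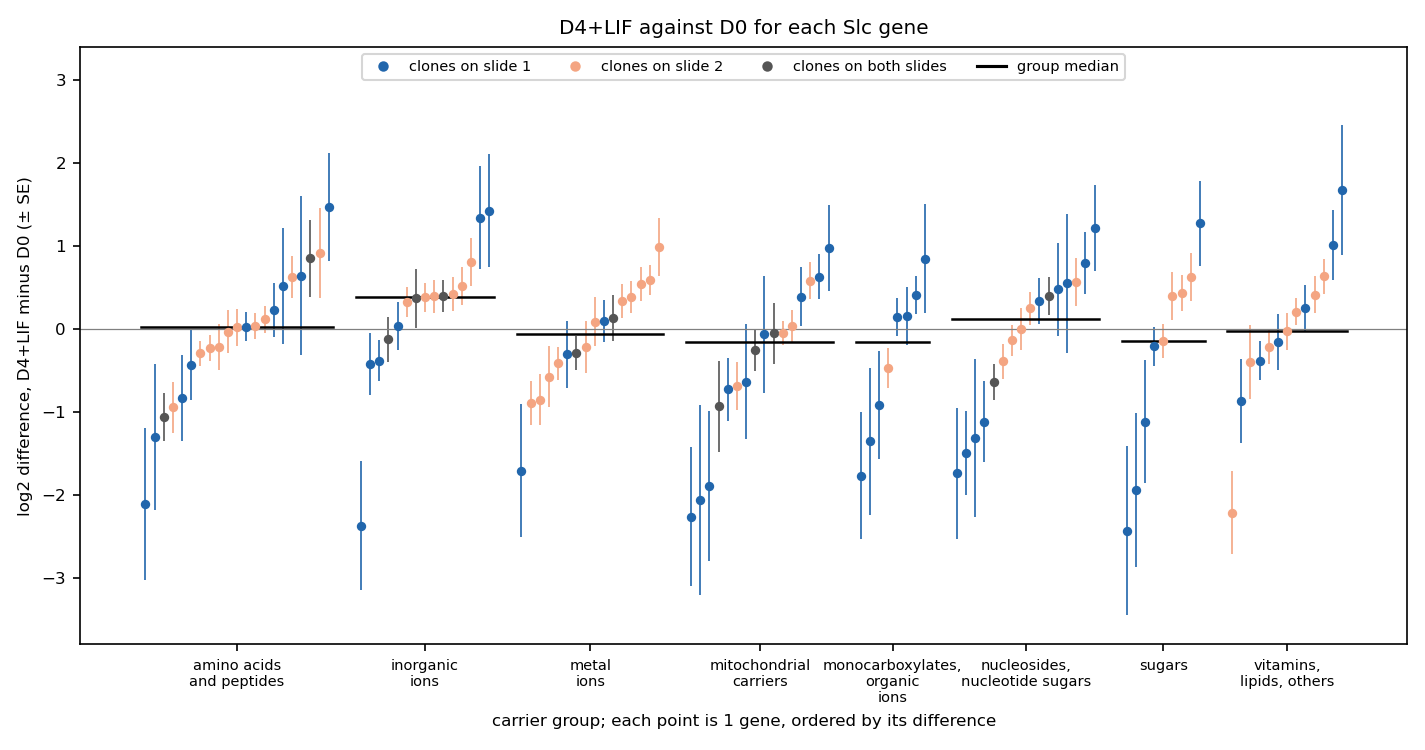
Fitted log2 difference of D4+LIF from D0 (y axis, ± SE) for each of the 114 Slc genes by carrier group (x axis), coloured by the slide of its clones, with the group median as a black line. The group medians lie between -0.16 and 0.38, and most of the widest bars belong to genes on slide 1.

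Counting only order within a dye, 7 transporters were highest in D0 on both dyes: Slc14a1, Slc17a9, Slc1a5, Slc25a26, Slc30a9, Slc38a7 and Slc39a7. That is 6.14%, beside 7.15% of all genes. Another 6 were lowest in D0 on both, Slc13a4, Slc18a1, Slc35f6, Slc40a1, Slc66a2 and Slc9b2, or 5.26% beside 5.92%. All 7 of the first set lie on slide 2 only, where they are 14.6% of the 48 Slc genes beside 6.93% of all genes. Of the second set 1 does, Slc40a1, which is 2.08% beside 6% of all genes.

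With slide 2 alone, D4+LIF against D0 called 4 of 60 transporters, beside 12.8% of the 4191 genes. Slc14a1 (-2.22 ± 0.47, adjusted p = 0.0309), Slc25a3 (-1.17 ± 0.32, adjusted p = 0.0435) and Slc39a7 (-0.89 ± 0.24, adjusted p = 0.0438) were lower, and Slc40a1 (0.60 ± 0.17, adjusted p = 0.0461) was higher. Slc25a3 rested on its slide 2 clone there, and with both clones its difference was -0.25 ± 0.25.

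The comparisons within EBs held few small p-values. No Slc gene had an unadjusted p under 0.05 for the trend without LIF or for the difference of trends, 5 did for the trend with LIF and 2 for LIF withdrawal. The 5 slopes with LIF were all above 0, from 0.15 per day for Slc30a4 and Slc45a4 to 0.21 ± 0.09 for Slc4a3, with Slc12a5 and Slc52a3 between (each adjusted p = 0.705). Both genes for LIF withdrawal were higher without LIF, Slc22a5 by 0.30 and Slc1a5 by 0.35 ± 0.15 (each adjusted p = 0.854). D0 is no side of these contrasts, though its arrays enter the dye term and the spread that all conditions share. Without D1+LIF Cy3, and also without D4+LIF Cy3, Slc genes were called for the trend with LIF, the difference of trends and LIF withdrawal. The condition then rested on its Cy5 array alone. These calls are not set beside those of all genes, so they cannot be read as particular to transporters. With all arrays in the fit, 1.08% of all 7142 genes had an unadjusted p under 0.05 for the trend without LIF. The shares were 1.57% for the difference of trends, 3.6% for the trend with LIF and 3.12% for LIF withdrawal.

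Lists of other transport genes also held no call in the 13 tests. In D4+LIF 28.5% of all genes had an unadjusted p under 0.05 against D0, with a median difference of -0.13 over all genes. Of 17 ion-pumping ATPases 7 had an unadjusted p under 0.05 below D0 in D4+LIF and 1 above, with a median difference of -0.81. They did not lie alike on D0 Cy3. Atp6v1e1, a subunit of the vacuolar proton pump, was at 4.74 on D0 Cy3 and -0.82 on D0 Cy5. Atp6v0a1, another subunit of that pump, was at -3.34 and -0.02. Of 14 ABC transporters 3 lay below D0 and none above at that threshold, with a median of -0.21. Of 11 mitochondrial pore and import genes 6 lay below and none above, with a median of -1.15.

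Among markers of undifferentiated ES cells, 7 of 13 listed genes were measured. Pou5f1 stood at 3.85 on D0 Cy3 and 0.08 on D0 Cy5, and Nanog at 3.80 and -0.71. Only Pou5f1 of the 7 lay above the pool on D0 Cy5. Their median difference of D4+LIF from D0 was -1.75, with 5 of 7 at an unadjusted p under 0.05, beside 28.5% of all genes, and 0 called. The median level of the 7 was 3.80 on D0 Cy3, -0.71 on D0 Cy5, 0.32 on D4+LIF Cy3 and -1.83 on D4+LIF Cy5. The 10 of 15 measured markers of extraembryonic endoderm had a median difference of -0.05, with 3 lower and 1 higher at that threshold, and the 3 of 5 fibroblast markers 0.11. Mesendoderm was represented by Eomes alone (0.47) and neurectoderm by Nes alone (-0.74). None was called, and their part in the transporter values was not tested.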

How the data were processed

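The deposited values were 1 linear ratio per spot. The authors quantified scanned slides in ImaGene 5.5 and scaled every channel to its mean intensity before taking the ratio, and which channel is the numerator is not stated. From these ratios log2 values were computed, 1 value of 0 being set to missing, both spots of each clone were averaged, and values were centred per array and slide on the median. Symbols came from the platform annotation. Clones with a single symbol were averaged per gene. The 9 condition means and a dye term were fitted over all 18 arrays with limma 3.58.1 in R 4.3.3, and p-values were adjusted over 7142 genes by Benjamini-Hochberg at 0.05. The code was tested on simulated data. The replicate number follows the dye, which was therefore the block. The study's own test takes duplicate spots as replicates and was not run. The members, carrier groups and marker lists were chosen with earlier results of these data known. The genes named by rule were the 10 Slc genes with the smallest p for any difference, the 2 with the smallest p in each carrier group, Slc25a5, and any gene called or past 2-fold in all 4 spots, 16 in all. Other genes named were chosen after their values were seen. The 5220 clones with no symbol and 274 with several were not analysed here. Primer sequences are those of the study. Alternatives covered centring, scale, dye, weights, filters, slides, direction and each array left out.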

Additional observations from a re-analysis of the deposited data

How the results depend on the processing

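Under 13 alternatives to the processing, 166 of 168 counts of called Slc genes stayed at 0 (limma, Benjamini-Hochberg). The exceptions were 1 in D1-LIF with each array centred on 1 median, Slc14a1, and 4 of 60 in D4+LIF with slide 2 alone. With slide 2 alone 12.8% of the 4191 genes were called. The Slc14a1 call is not set beside those of all genes, so it cannot be read as particular to transporters. The counts of 0 are not set beside all genes either. The alternative that also asked for a 2-fold change used the main fit, which called no Slc gene, so its counts could only be 0. Without the replicate block (the dye term) the count was 0 in all 13 tests. With each of the 18 arrays left out in turn, 214 of 234 counts were 0. The range was 0 to 41 in D1-LIF, 0 to 27 in D2-LIF, 0 to 39 in D3-LIF, 0 to 33 in D4-LIF, 0 to 36 in D1+LIF, 0 to 35 in D2+LIF, 0 to 39 in D3+LIF and 0 to 43 in D4+LIF, with the highest of each from leaving out D0 Cy5, as was 21 for any difference among conditions. Without D2-LIF Cy3 there were 2 in D2-LIF. Without D1+LIF Cy3 there were 17 in D1+LIF, 11 for the trend with LIF, 6 for the difference of trends, 3 for LIF withdrawal and 4 for any difference. Without D4+LIF Cy3 there were 15 in D4+LIF, 4 for the trend with LIF, and 1 in each of the other 3 tests. A condition left with 1 array is assumed to vary like the others. The calls made without an array of D2-LIF, D1+LIF or D4+LIF are not set beside those of all genes. The same holds for the calls for any difference among conditions made without D0 Cy5. Such calls cannot be read as particular to transporters. For the 10 Slc genes with the smallest p for any difference, the D4+LIF difference from D0 turned its sign in 17 of 284 values. Many of the 284 come from leaving out an array of a condition other than D4+LIF or D0. Such a fit can hardly move this difference, so the share that turned does not measure how firm the signs are. With no centring the difference was 0.16 for Slc6a6, 0.18 for Slc25a5 and 0.30 for Slc22a5. With equal spread it was 0.45 for Slc14a1 and 0.050 for Slc22a5. With quantile normalisation it was 0.31 for Slc25a5 and 0.0048 for Slc3a2, and with slide 2 alone 0.59 for Slc25a5. With the Cy3 arrays read as pool over sample it was -0.0073 for Slc40a1, 0.11 for Slc6a6, 1.27 for Slc20a1, 1.48 for Slc2a1, 0.45 for Slc25a5, 1.52 for Slc3a2, 1.69 for Slc2a3 and -0.33 for Slc52a3. With slide 1 of the 3 widest or emptiest arrays left out, chosen after seeing the data, it was 0.26 for Slc25a5. The median of all genes against D0 was 0.22 to 0.84 with no centring and up to 0.33 with 1 median per array. Apart from what each alternative removes by construction, the cause was not tested.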
